A study of Mus musculus with 6 samples.

Results

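Nuclei of mice that carried human APOE4 were compared with nuclei of mice that carried human APOE3, in both cases without a tau transgene. The FE3 library came from APOE3 fl/fl mice and the FE4 library from APOE4 fl/fl mice. Both were of strain B6, were 9 months old and had treatment listed as none, and in both the human APOE gene was floxed, that is, flanked by sites at which Cre recombinase can cut. No Cre is named for either. Nuclei were kept with at least 500 UMIs (unique molecular identifiers, the counted RNA molecules), at least 300 genes and at most 5% of UMIs from mitochondrially encoded genes. This left 10948 nuclei of FE3 and 16537 of FE4, 27485 of the 77421 nuclei that passed the same rule over all 6 libraries. After the highest doublet scores were left out, 9989 nuclei of FE3 and 14349 of FE4 were used.

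The other 4 libraries give 2 more pairs of the alleles. They came from 9-month-old B6 mice with the P301S form of human tau, floxed APOE3 or APOE4 and a Cre that the labels spell Aldh1la1CreERT, and received either oil, in TAFE3_oil and TAFE4_oil, or tamoxifen, in TAFE3_tam and TAFE4_tam. They share no library with FE3 or FE4. By their titles all libraries are of hippocampus, while the protocol speaks of the left hemisphere and the tissue label of brain nuclei. Both 5′ kits and sequencing of 3′ ends are mentioned. The number of animals behind a library is not stated. Each group is 1 library, so no test between animals was possible and no p-value is given. All intervals are 95% intervals that cover counting error only.

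Apolipoprotein E carries cholesterol and other lipids between cells. In the brain it is made mostly by astrocytes, and also by choroid plexus, vascular cells and microglia that have become activated. Cells take it up through receptors of the LDL receptor family, and in people APOE4 is the common allele that raises the risk of Alzheimer's disease, compared with APOE3. Mice with human APOE in place of the mouse gene are used to compare the alleles, here without tau pathology.

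The 2 libraries differed in their mitochondrial RNA before any allele is considered. The median share of mitochondrially encoded UMIs per barcode was 3.23% in FE3 and 0.625% in FE4, and 30.2% of FE3 barcodes and 8.99% of FE4 barcodes were over the limit of 5%. Among used nuclei, 11.3% of FE3 and 70.9% of FE4 were at or under 1%. Depth per used nucleus was alike, with a median of 2398 UMIs in FE3 and 2256 in FE4. The nuclear RNA Malat1 went the other way: in granule neurons it took 26.3% of UMIs in FE3 and 34.3% in FE4. FE3 and FE4 shared 79 barcodes, 38 of them among used nuclei. Because the allele and the library coincide, an effect of the allele and an effect of nuclei preparation cannot be told apart, and values within nuclei of 1 to 3% mitochondrial UMIs are given beside the results as a match chosen after seeing the data.

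Used nuclei of all 6 libraries fell into 30 clusters, which were named by marker genes, so that each name below stands for nuclei resembling that cell type. Glia made up more of FE4 than of FE3. Oligodendrocytes, the myelin-forming cells, were 6.20% of FE3 (619 nuclei) and 12.2% of FE4 (1757 nuclei), a log2 ratio of 0.98 (0.85 to 1.12). Microglia, the brain's resident macrophages, were 1.74% (174 nuclei) and 3.77% (541 nuclei), a log2 ratio of 1.11 (0.87 to 1.37). Astrocytes were 5.40% and 6.60%. Of all glia and neurons together, glia were 17.1% in FE3 and 27.7% in FE4.

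These glial shares moved with the mitochondrial filter. It removed 62.8% of microglia, 56.1% of oligodendrocytes and 53.3% of astrocytes from FE3, against 9.38%, 5.69% and 13.1% from FE4. Without the filter the log2 ratio was 0.24 for microglia, 0.29 for oligodendrocytes and -0.19 for astrocytes, so that the astrocyte share was lower in FE4. Among nuclei with at least 1000 UMIs the microglial ratio was -0.76, lower in FE4, while the oligodendrocyte ratio was 0.77. Microglia also had fewer UMIs per nucleus in FE4 (a median of 716) than in FE3 (1161.5). In the tau pairs the microglial log2 ratio was 0.06 with oil, where the medians of mitochondrial share were 2.01% (TAFE3_oil) and 2.35% (TAFE4_oil). It was 1.04 with tamoxifen, where they were 2.81% (TAFE3_tam) and 0.695% (TAFE4_tam). The tau pairs also differ in treatment, and a link between microglial and mitochondrial shares across pairs was not tested.

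Shares of the 5 neuron classes were equal or lower in FE4. Granule neurons of the dentate gyrus, the input layer of the hippocampus, were 23.2% of FE3 and 23.3% of FE4. CA1 neurons were 12.1% and 9.90%, a log2 ratio of -0.29 (-0.40 to -0.18). CA2 or CA3 neurons were 7.87% and 5.62%, a log2 ratio of -0.48 (-0.63 to -0.34). The mitochondrial filter removed 4.38% of them in FE3 and 0.370% in FE4, but a share also depends on the nuclei removed from other classes. Counted within the 3 hippocampal classes alone, granule neurons made up 53.7% of FE3 and 60.0% of FE4 and CA2 or CA3 neurons 18.2% and 14.5%. Without the mitochondrial filter the log2 ratios were -0.06 (-0.16 to 0.05) for CA1 and -0.13 (-0.28 to 0.008) for CA2 or CA3 neurons. Both of these intervals held 0.

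**Figure D1:**
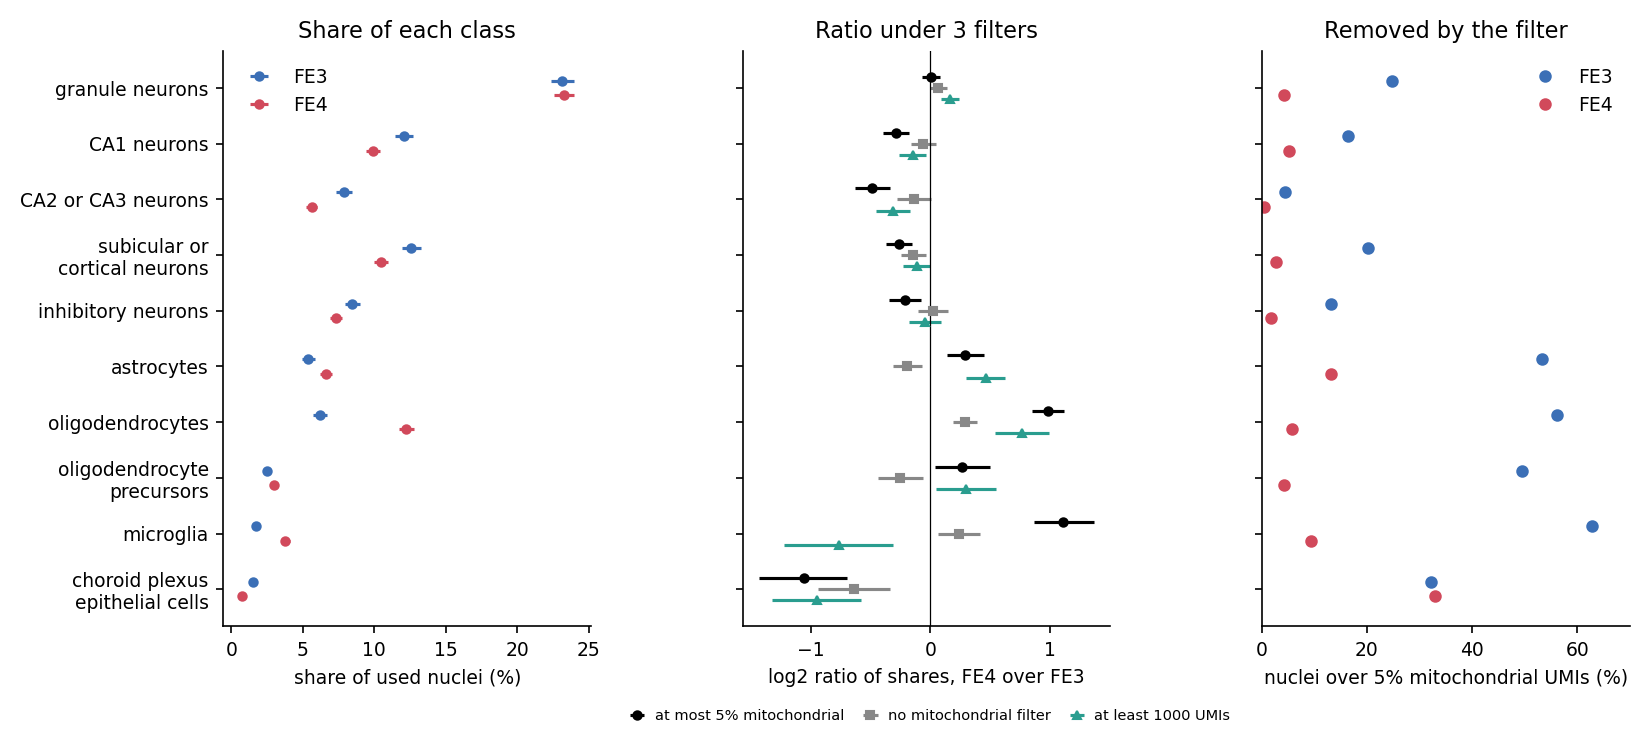
Left, the share of used nuclei in each class in FE3 and FE4, in percent, with exact 95% intervals. Middle, the log2 ratio of shares, FE4 over FE3, under 3 filters, with 95% counting intervals. Right, the percent of nuclei over 5% mitochondrial UMIs. Glial classes lay above 0 under the 5% limit, microglia were at -0.76 with at least 1000 UMIs, and FE3 lost 62.8% of microglia to the filter against 9.38% in FE4.

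Small clusters also differed. Cajal-Retzius cells, early-born reelin neurons, were 10 nuclei of FE3 and 62 of FE4, a log2 ratio of shares of 2.11, which was 1.96 without the mitochondrial filter. Choroid plexus epithelial cells, which make cerebrospinal fluid, were 154 and 106 (-1.06, and -0.64 without the filter). Endothelial cells were 41 and 102 (0.79), but 163 and 175 before the filter, which removed 74.8% of them in FE3 and 41.7% in FE4, and the ratio without it was -0.011. A cluster led by haemoglobin genes held 36 and 249 nuclei (2.27), and 93.3% (FE3) and 74.0% (FE4) of its nuclei were over the mitochondrial limit. Without the filter its ratio was 0.72. An excitatory cluster marked by Etv1, Cpne7 and Dlk1 was 13.3% of FE3 and 10.7% of FE4 (-0.32, and -0.047 without the filter). It was given no cell type name and so is not among the 10 classes described below. Within subicular or cortical excitatory neurons, a cluster marked by Tshz2 made up 34.2% in FE3 and 45.5% in FE4, and a cluster marked by Cux2 and Rorb, genes of upper cortical layers, 13.3% and 7.32%. The tissue that entered each library, beyond the title's hippocampus, was not tested.

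For each class, the UMIs of all its nuclei in a library were added up, and a gene's level is given in CPM, its UMIs scaled to a common class total. A gene counted as higher or lower where FE4 and FE3 differed at least 1.5-fold, among genes with at least 100 UMIs over both. In granule neurons 72 of 9708 genes were higher (0.742%) and 698 lower (7.19%). In CA1 neurons 57 of 7946 were higher (0.717%) and 611 lower (7.69%). Microglia had the widest spread of the 10 classes, with 192 of 1236 genes higher (15.5%) and 223 lower (18%). Astrocytes were balanced, with 160 of 4845 higher (3.3%) and 220 lower (4.54%). Both depended on the doublet rule. With the doublet caller's own threshold microglia had 44 higher and 196 lower of 1649 genes, and astrocytes 725 and 661 of 6253. Choroid plexus cells then had 78 and 192 of 1040, so microglia were no longer the widest. With doublets kept microglia had 100 and 215 of 2525. The other neurons had 57 higher (0.763%) and 555 lower (7.43%) in CA2 or CA3, 82 (0.963%) and 483 (5.67%) in subicular or cortical and 63 (0.797%) and 411 (5.2%) in inhibitory neurons. Oligodendrocytes had 97 (2.74%) and 364 (10.3%), their precursors 31 (2.27%) and 143 (10.5%), and choroid plexus cells 22 (2.44%) and 93 (10.3%). The excess of lower genes depended on scaling. The median log2 ratio of all such genes was between -0.17 (CA1 neurons) and -0.04 (microglia), and with TMM factors, which centre on most genes, the counts were 207 higher and 304 lower in granule neurons and 207 and 257 in CA1 neurons. Over the 10 classes TMM gave 1712 higher and 2022 lower, against 833 and 3801. Ratios below are read against these class medians.

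Human APOE itself was lower in FE4 neurons and close between libraries in astrocytes. It made up 12072 CPM of astrocytes in FE3 and 12899 CPM in FE4, a log2 ratio of 0.10 (0.06 to 0.13), which was -0.32 with the doublet caller's own threshold. In granule neurons APOE was at 1065 CPM in FE3 and 629 CPM in FE4 (-0.76, -0.81 to -0.70), in CA1 neurons at 838 and 476 (-0.82), and in CA2 or CA3 neurons at 524 and 259 (-1.02). All 5 neuron classes were thus lower in FE4, the other 2 being subicular or cortical (878 and 499) and inhibitory neurons (723 and 440). Oligodendrocytes were lower too (2895 and 2363, -0.29), while precursors differed by less than counting error (4982 and 4744, -0.07, -0.16 to 0.02). Choroid plexus cells were higher in FE4 (2852 and 4287, 0.59, 0.47 to 0.71).

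Microglia had 1461 CPM of APOE in FE3 and 1763 in FE4, a log2 ratio of 0.27 (0.11 to 0.44). Its direction turned with the choice of nuclei: -0.38 with at least 1000 UMIs, -0.23 with doublets kept and -0.60 with the doublet caller's own threshold. In the tau pair with oil, APOE4 nuclei had more APOE than APOE3 nuclei in every neuron class (0.51 in granule neurons, 0.56 in CA1), and with tamoxifen the ratios were 0.08 and 0.10. The mouse gene Apoe took between 8.96% and 13.3% of human and mouse APOE UMIs together in the 10 classes and the cluster marked by Etv1, Cpne7 and Dlk1, and its ratios in neurons were near those of APOE (-0.70 in granule neurons, -0.92 in CA1). Whether these mouse UMIs come from reads of the human gene was not tested.

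**Figure D2:**
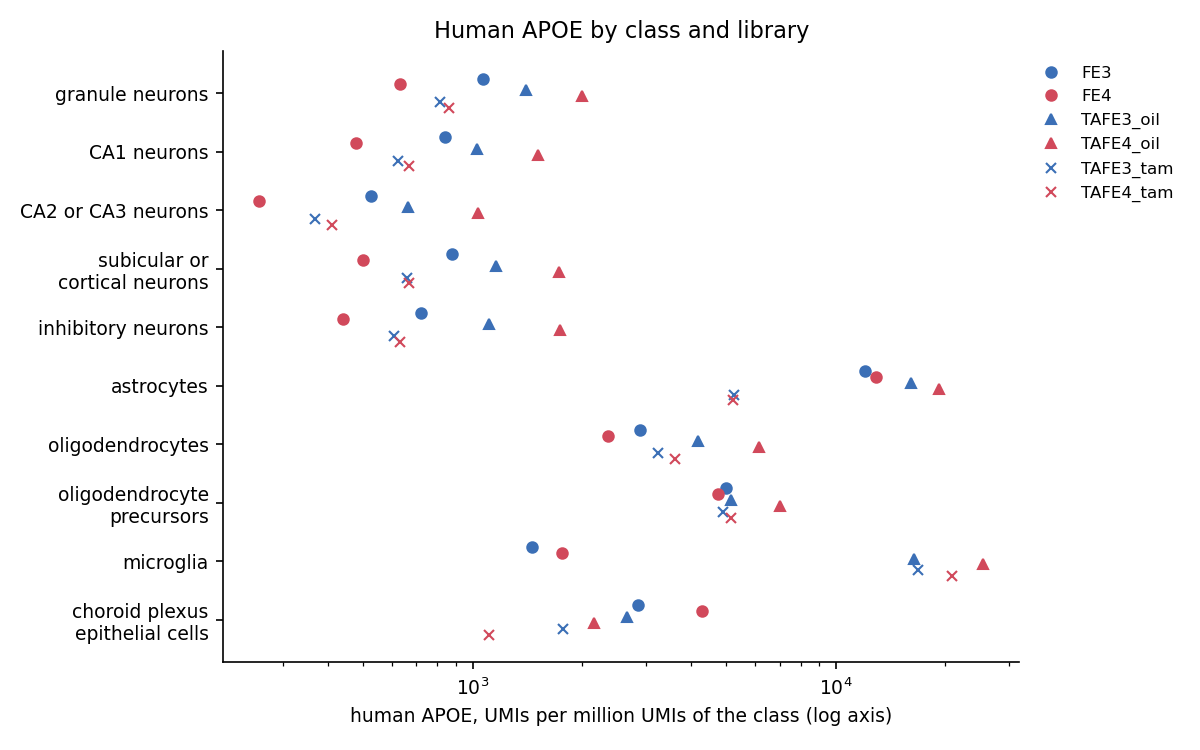
Human APOE in 10 classes, in CPM of the class on a log axis, with 1 point per library. FE4 lies left of FE3 in the 5 neuron classes (629 against 1065 in granule neurons), TAFE4_oil lies right of TAFE3_oil in them, and astrocytes of FE3 and FE4 nearly coincide (12072 and 12899).

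Astrocyte transcripts found in neuron nuclei followed the same course. In granule neurons, 26 of 28 measured homeostatic astrocyte genes were lower in FE4, 16 of them past 1.5-fold (10.2% of all genes were), with a median log2 ratio of -0.61 against -0.16 for all genes. Within astrocytes their median was -0.18. As a share of the level in astrocytes of the same library, granule neurons held 8.82% (FE3) and 4.88% (FE4) of APOE, 6.55% and 3.90% of the glutamate transporter Slc1a2, and 13.6% and 3.81% of glutamine synthetase Glul. For Aldoc, aldolase C of astrocytes, the shares were 21.5% and 5.93%. The summed level of 10 astrocyte markers in granule neurons was 851 CPM in FE3 and 582 in FE4. It was 629 and 434 for 9 oligodendrocyte markers and 1300 and 738 for 6 choroid plexus markers. None of these markers was at 0. For 4 excitatory neuron markers the sums were 1909 and 1437, and for 8 granule neuron markers 1654 and 1519. For 8 markers of pericytes or smooth muscle they were 46.7 and 46.6, and for 7 endothelial markers 40.5 and 35.8. The part of RNA from other cells in the neuronal APOE values was not tested. Within nuclei of 1 to 3% mitochondrial UMIs the astrocyte list had a median of -0.19 in granule neurons, and within nuclei of at most 1% it had -0.29.

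RNA of energy metabolism and translation was lower in FE4 across classes. The 13 mitochondrially encoded genes, on which the filter acts, had medians from -0.76 in choroid plexus cells to -2.22 in CA2 or CA3 neurons. Genes outside the filter went the same way. Of the nuclear-encoded subunits of oxidative phosphorylation, 54 of 55 were lower in granule neurons, 35 past 1.5-fold, with a median of -0.69. Of all genes in these neurons 10.2% were lower past 1.5-fold, and their median was -0.16. Of 78 ribosomal protein genes measured in granule neurons none was higher and 62 were lower past 1.5-fold, against the same 10.2% of all genes, with a median of -0.82. Microglia had a ribosomal median of -0.14 and an oxidative phosphorylation median of -0.22. Matching mitochondrial content made these values smaller: in granule neurons of 1 to 3% mitochondrial UMIs the medians were -0.41 (ribosomal) and -0.40 (oxidative phosphorylation), and in microglia they turned to 0.36 and 0.12. The tau pair with tamoxifen, whose mitochondrial shares also differed, had a ribosomal median of -0.44 in granule neurons, and the pair with oil 0.20. These pairs also differ in treatment, and whether ribosomal and mitochondrial RNA go together across pairs was not tested.

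**Figure D3:**
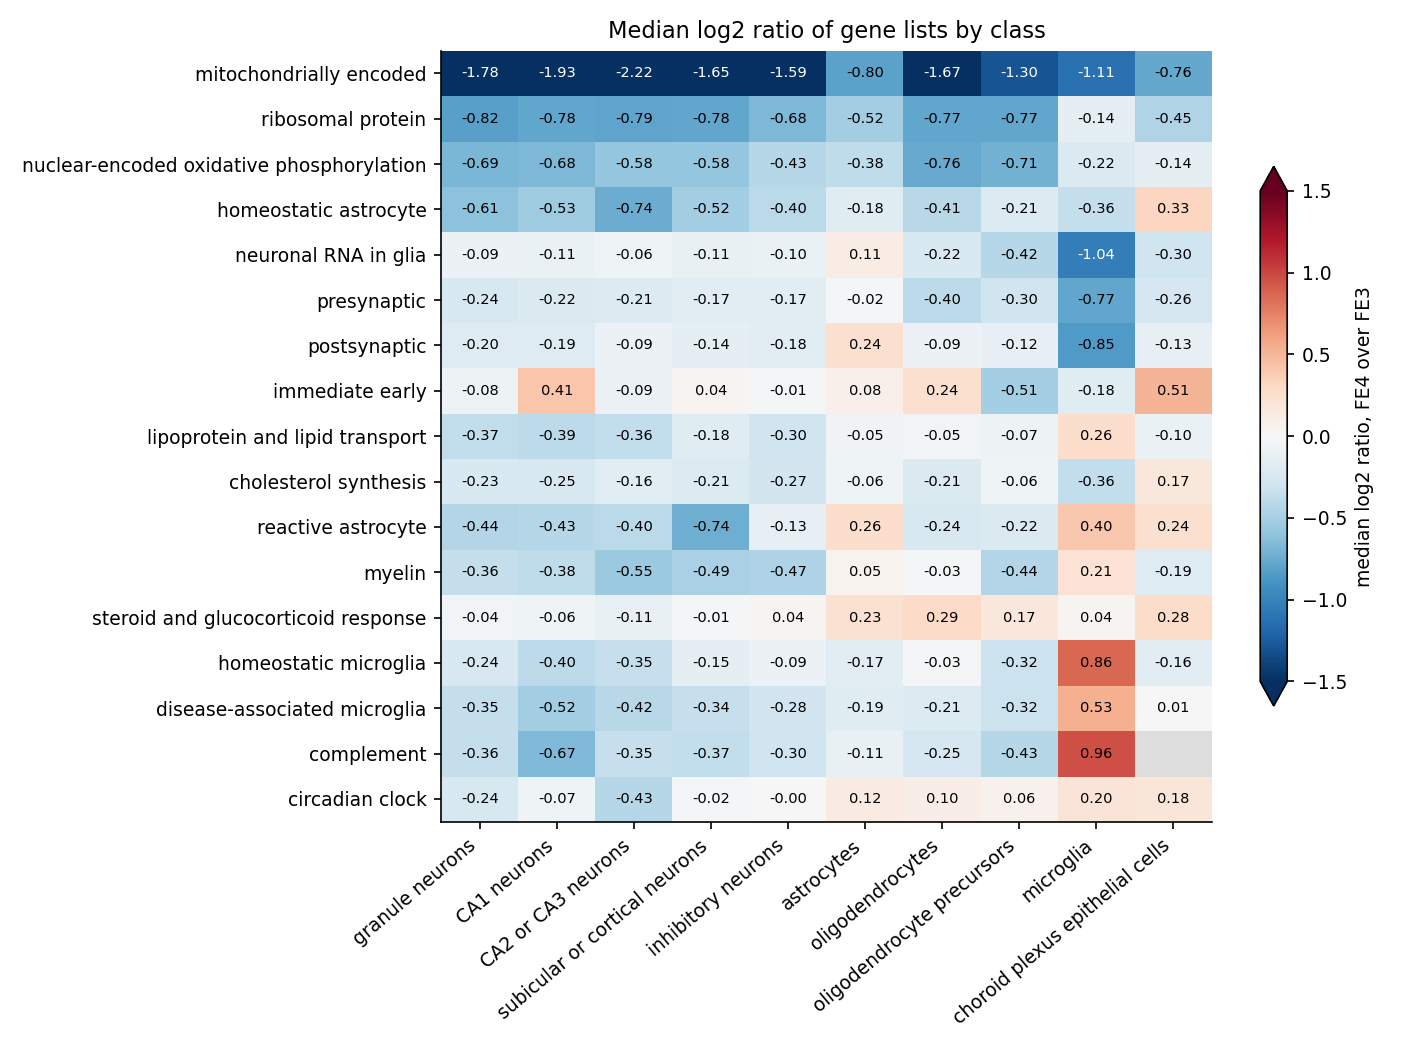
Median log2 ratio, FE4 over FE3, of 17 gene lists (vertical) in 10 classes (horizontal), with the color scale ending at -1.5 and 1.5. Grey marks a list with under 5 measured genes in a class. Mitochondrially encoded genes were lower in every class (to -2.22 in CA2 or CA3 neurons), ribosomal genes lower in all 10, and microglial lists higher in microglia (0.86 for homeostatic genes).

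Across cell types, few genes were higher in FE4 and many lower. Of 7714 genes measured in at least 4 classes, 12 were higher past 1.5-fold in at least 4, each with an interval clear of 0, and 245 were lower in at least 4. Snhg9, a non-coding host gene of a small nucleolar RNA, was higher in 10 of 10 classes, the most of these 12. Granule neurons had 116 CPM of Snhg9 in FE3 and 285 in FE4, CA1 neurons 91.8 and 259, and microglia 118 and 525. Its log2 ratios ran from 1.24 in oligodendrocyte precursors to 2.15 in microglia. In CA1 neurons of the tau pairs its ratio was -0.09 with oil and 0.06 with tamoxifen. Snhg9 lies at chr17:24719531-24719965 on the minus strand (mm10, GENCODE vM21), and all 435 of its bases overlap the ribosomal protein gene Rps2 on the opposite strand. Rps2 was lower in FE4 (388 and 254 CPM in granule neurons). Whether counting used strand is not stated, so the reads of the pair cannot be told apart.

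Amd1, the S-adenosylmethionine decarboxylase of polyamine synthesis, was higher past 1.5-fold in 7 classes, with 128 CPM in FE3 and 203 in FE4 granule neurons (0.66, 0.53 to 0.80). In the tau pairs it was not higher with APOE4 in these neurons (-0.32 with oil and -0.37 with tamoxifen). C1ql3, a secreted protein of the C1q family found at synapses, was higher in 6 classes, among them astrocytes (223 and 454, 1.03). Fam189a1 was higher in 5, with 48.7 CPM in FE3 and 81.6 in FE4 in CA1 neurons (0.75, 0.48 to 1.02).

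Mid1, a ubiquitin ligase that binds microtubules, was higher in all 5 classes in which it was measured, which were the neuron classes. CA1 neurons had 11.1 CPM in FE3 and 35.2 in FE4 (1.67, 1.15 to 2.22), granule neurons 18.4 and 56.6 (1.62), and inhibitory neurons 7.14 and 37.7 (2.40). The tau pair with oil gave Mid1 a ratio of 2.33 in CA1 and 1.44 in granule neurons, and the pair with tamoxifen -0.62 and 0.01. Both pairs without tamoxifen thus had more Mid1 with APOE4 in these classes. Mid1 lies at chrX:169685199-170005736 (mm10) and in B6 mice spans the edge of the pseudoautosomal region, the stretch that X and Y share, so its counts are uncertain. Over all nuclei the Y-linked gene Ddx3y was at 63.8 and 63.2 CPM, FE3 first.

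Among genes lower in FE4, Fth1, the heavy chain of the iron-storing ferritin, was past 1.5-fold in granule neurons (1158 and 559, -1.05, -1.11 to -0.99). It was lower in all 10 classes, from -0.41 in microglia to -1.17 in subicular or cortical neurons, and in microglia it turned to 0.30 at 1 to 3% mitochondrial UMIs. Cox5b and Ndufa4, of the respiratory chain, and Fau and Rps3a1, of the ribosome, were, like Fth1, lower past 1.5-fold in 9 classes. In granule neurons Cox5b had 131 CPM in FE3 and 73.0 in FE4, Ndufa4 194 and 92.4, Fau 196 and 92.0 and Rps3a1 187 and 103. In granule neurons of the tau pairs Fth1 had ratios of -0.10 with oil and -0.36 with tamoxifen.

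**Figure D4:**
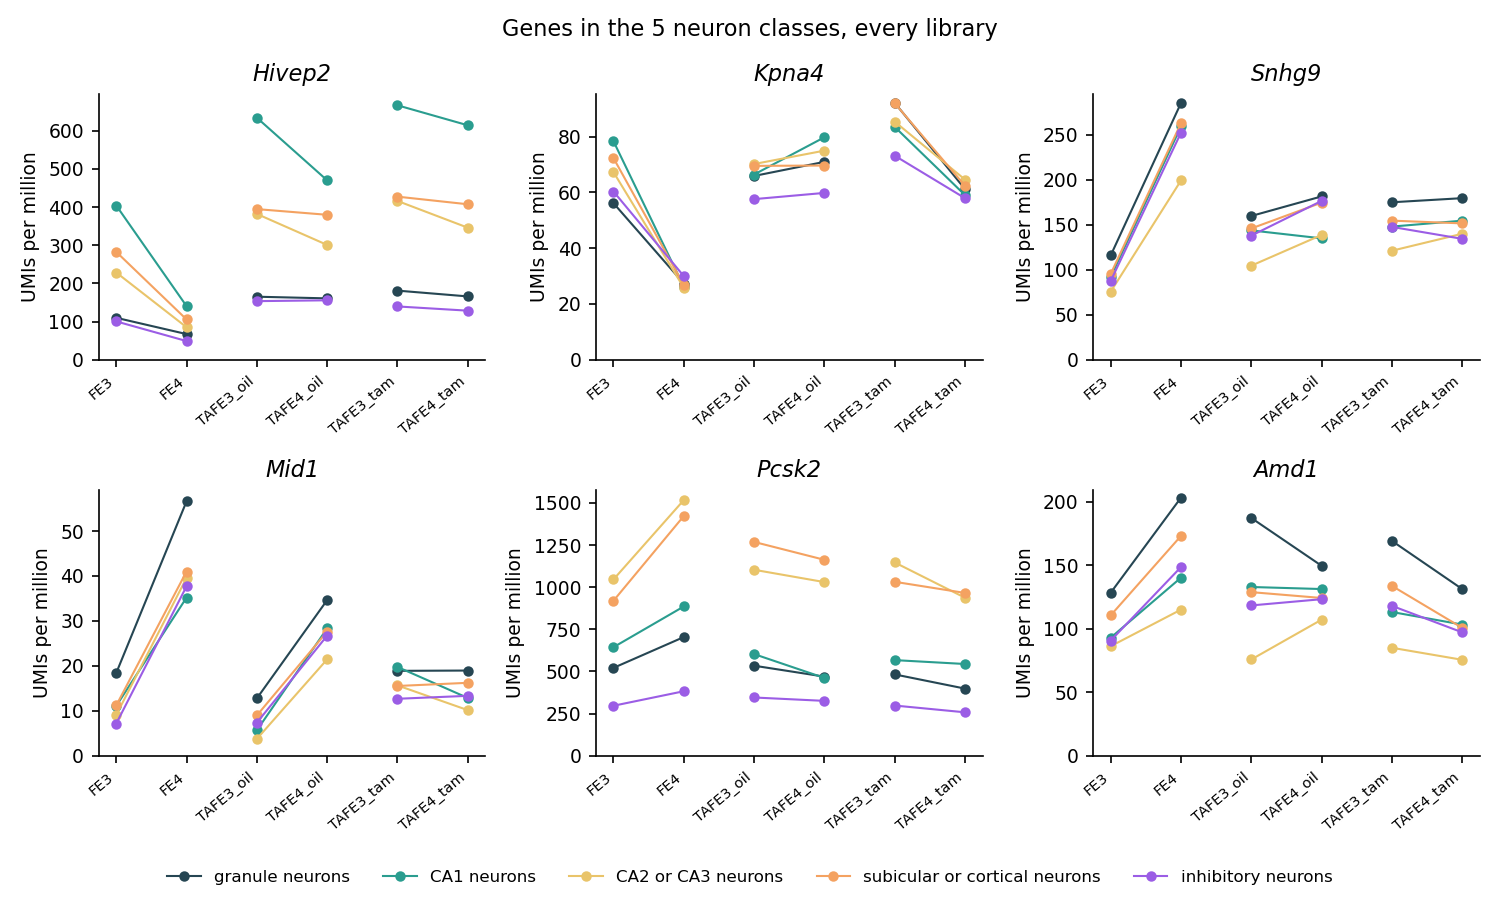
CPM of 6 genes in the 5 neuron classes (colors), by library, with lines joining the APOE3 and APOE4 library of a pair. FE4 had the lowest Hivep2 and Kpna4 of the 6 libraries (140 CPM of Hivep2 in CA1 neurons against 404 in FE3) and the highest Snhg9 (285 in granule neurons), while Mid1 was higher with APOE4 in FE and oil pairs.

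In CA1 neurons, which give the main output of the hippocampus, Hivep2 and Kpna4 were the lowest by the naming rule. Hivep2, a large zinc finger transcription factor at chr10:13966075-14151374 on the plus strand (mm10), had 404 CPM in FE3 and 140 in FE4, a log2 ratio of -1.52 (-1.66 to -1.39). The tau libraries lay above both, with 634 (TAFE3_oil), 470 (TAFE4_oil), 667 (TAFE3_tam) and 615 (TAFE4_tam). Hivep2 was also lower in FE4 in CA2 or CA3 neurons (229 and 85.1, -1.43), subicular or cortical neurons (283 and 106, -1.42), inhibitory neurons (-1.04) and granule neurons (-0.71). Its ratio in CA1 neurons was -1.56 within nuclei of 1 to 3% mitochondrial UMIs and -1.39 within those of at most 1%. Other genes overlap it on the other strand, and the same holds for many of the genes named here, among them Mid1, Pcsk2, Ddn, Podxl2, Hk2, Mtmr11, C1ql3, Myoc, Senp5, Lnx1, Rbm47, Tnpo2, Rev3l, Ntm, Chchd10, Usp34 and Spata7. Their counts share the limit given for Snhg9.

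Kpna4, an importin alpha that carries proteins into the nucleus, had 78.4 CPM in FE3 CA1 neurons and 26.2 in FE4 (-1.58, -1.91 to -1.26), and -1.55 at 1 to 3%. In subicular or cortical neurons it had 72.3 and 26.9 (-1.43). Ddn, dendrin of the postsynaptic density, had 127 and 56.9 CPM in CA1 neurons (-1.16). The Ddn ratio was -0.99 at 1 to 3% mitochondrial UMIs, -0.54 at or under 1% and 0.44 in the tau pair with oil. The genes named as higher in CA1 neurons were Egr4, an activity-induced transcription factor (42.3 and 78.0 CPM, 0.88), the SUMO protease Senp5 (24.8 and 47.3, 0.93) and the centrosomal protein gene Cep135 (24.5 and 46.4, 0.92). At 1 to 3% mitochondrial UMIs Egr4 had 0.59, Senp5 0.95 and Cep135 1.32.

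Immediate early genes are transcribed within minutes of neuronal activity, many through the factor CREB. Of 27 measured in CA1 neurons 17 were higher and 10 lower in FE4, with 8 higher past 1.5-fold (3.1% of all genes were) and none lower past it, and a median of 0.41 against -0.17 for all genes. Npas4, a factor induced by calcium entry, had 34.7 CPM in FE3 and 62.5 in FE4 (0.85, 0.54 to 1.17), Fos 11.9 and 21.5 (0.85, 0.31 to 1.41) and Junb 72.0 and 113 (0.65). Btg2 had 24.8 and 41.9 (0.76), Egr1 29.4 and 43.2 (0.56), and Arc, of synaptic scaling, 91.5 and 124 (0.44). Bdnf had 70.8 and 71.0 (0.00), and Homer1 174 and 147 (-0.24). The median was 0.45 at 1 to 3% mitochondrial UMIs, 0.37 at or under 1% and 0.59 with TMM factors. In the other neuron classes the median was -0.08 in granule neurons, -0.09 in CA2 or CA3, 0.04 in subicular or cortical and -0.01 in inhibitory neurons. In CA1 neurons of the tau pairs it was 0.15 with oil and 0.08 with tamoxifen, where all genes had 0.07 and 0.02. Differences between these pairs were not tested.

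The promoters of 3 of these genes are shown because activity-induced genes are often linked to the CREB motif TGACGTCA, which reads the same on both strands. The window runs from 250 bases before to 50 after the start site (RefSeq, GRCm38.p6). It was found in 3 of 24 immediate early promoters with an entry (12.5%) and in 549 of 27025 promoters of all genes (2.03%). Capitals mark the motif, which Btg2 holds at position -166 from its start site. In Egr4 and Npas4 these letters are not in this window. A match is a description of the sequence and not a site.
Btg2 (chr1:134079106-134079405, minus strand): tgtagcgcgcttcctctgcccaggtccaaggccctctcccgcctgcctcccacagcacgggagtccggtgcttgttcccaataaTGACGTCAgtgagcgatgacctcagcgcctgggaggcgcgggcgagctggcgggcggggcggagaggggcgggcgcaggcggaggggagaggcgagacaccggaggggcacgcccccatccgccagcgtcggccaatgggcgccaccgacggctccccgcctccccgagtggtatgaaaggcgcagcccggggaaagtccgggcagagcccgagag
Egr4 (chr6:85513540-85513839, minus strand): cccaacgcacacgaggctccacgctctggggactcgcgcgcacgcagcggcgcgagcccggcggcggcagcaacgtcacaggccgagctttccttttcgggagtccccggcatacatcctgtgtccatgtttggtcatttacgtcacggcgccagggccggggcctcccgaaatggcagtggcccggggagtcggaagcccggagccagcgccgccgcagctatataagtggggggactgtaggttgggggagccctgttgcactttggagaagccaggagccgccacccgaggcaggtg
Npas4 (chr19:4989922-4990221, minus strand): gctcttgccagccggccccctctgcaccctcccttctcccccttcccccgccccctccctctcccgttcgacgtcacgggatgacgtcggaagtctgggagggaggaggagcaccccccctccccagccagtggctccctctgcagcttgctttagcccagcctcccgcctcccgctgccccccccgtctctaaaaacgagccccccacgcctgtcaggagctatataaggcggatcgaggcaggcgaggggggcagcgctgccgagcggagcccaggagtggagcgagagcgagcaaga

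In CA2 or CA3 neurons, Pcsk2, the convertase that cuts prohormones into neuropeptides, had 1046 CPM in FE3 and 1517 in FE4 (0.54, 0.48 to 0.59). In subicular or cortical neurons it had 920 and 1422 (0.63), against -0.13 in the tau pair with oil. Klf10, a transcription factor, was higher in CA2 or CA3 neurons (30.5 and 55.1, 0.85) and so was the ubiquitin ligase Lnx1 (118 and 182, 0.62). The lower genes there, beside Hivep2, were the death receptor Tnfrsf25 (82.7 and 42.3, -0.97) and the nuclear import factor Tnpo2 (60.7 and 30.4 CPM). Subicular or cortical neurons were also higher for Btg2 (50.9 and 87.6, 0.78) and for Timm44, of mitochondrial protein import (174 and 270, 0.63). They were lower for Ndufa1, a complex I subunit (47.9 and 21.4, -1.16).

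In granule neurons the named genes were, beside Mid1 and Snhg9, the RNA helicase Ddx19a (17.4 and 32.2 CPM, 0.89) as higher. Cox6a1 of cytochrome oxidase (130 and 50.8, -1.36), the elongation factor Eef1a1 (373 and 190, -0.97) and selenoprotein W, Sepw1 (274 and 138, -0.99), were lower. All 3 lower genes shrank when mitochondrial content was matched: at 1 to 3% they were -0.64, -0.67 and -0.57. Inhibitory neurons were higher for Mtmr11, a myotubularin relative (9.64 and 23.4, 1.28), Spata7 (73.6 and 119, 0.69) and the kinase Nek4 (30.7 and 53.9, 0.81). They were lower for Rev3l, the polymerase subunit of translesion synthesis (158 and 82.0, -0.94), for Podxl2, a cell surface sialomucin (449 and 257, -0.81), and for Rpl22l1, a ribosomal protein relative (102 and 56.0, -0.87).

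The lists of synaptic genes lay near the class median in neurons. Presynaptic genes had medians of -0.24 in granule, -0.22 in CA1 and -0.17 in inhibitory neurons, and postsynaptic genes from -0.20 in granule to -0.09 in CA2 or CA3 neurons. With TMM factors all 10 of these medians lay between -0.07 and 0.06. Chaperones were lower: 25 of 26 in CA1 neurons, 7 past 1.5-fold (12.3% of all genes were), with a median of -0.48. Hsp90aa1, an inducible HSP90, had 216 CPM in FE3 and 130 in FE4 (-0.73, -0.89 to -0.58).

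In astrocytes the lipid genes lay near the class median. Of 27 measured genes of lipoprotein and lipid transport 11 were higher and 16 lower, with none higher and 4 lower past 1.5-fold (8.93% of all genes were lower) and a median of -0.05. The apolipoprotein J gene Clu had 1353 CPM in FE3 and 1432 in FE4 (0.08, -0.01 to 0.18), and Abca1, the exporter that loads lipid onto apolipoprotein E, 95.6 and 94.1 (-0.02, -0.39 to 0.35). The receptor Lrp1 had 274 and 270 (-0.02, -0.24 to 0.19). Lcat, which esterifies cholesterol on lipoproteins, was lower (139 and 99.9, -0.47, -0.80 to -0.15). Of 25 cholesterol synthesis genes, 10 were higher and 15 lower (median -0.06). Hmgcs1, an early enzyme, had 80.9 and 125 CPM (0.62, 0.25 to 1.01), and Lss, which closes the sterol rings, 34.7 and 18.4 (-0.91, -1.62 to -0.19).

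Reactive astrocyte genes had a median of 0.26, with 11 of 17 higher and 2 past 1.5-fold (8.5% of all genes were higher). Gfap, the astrocyte filament, had 319 CPM in FE3 and 391 in FE4 (0.29, 0.10 to 0.49), and the metallothionein genes Mt1 1194 and 1478 (0.31) and Mt2 421 and 555 (0.40). C4b, of complement, had 225 and 209 (-0.11, -0.35 to 0.14). The chemokine gene Cxcl10 had 0 UMIs in FE3 and 25 in FE4. Of the homeostatic genes 26 of 28 were lower, none past 1.5-fold, with Slc1a2 at 4969 and 4808 (-0.05) and the cystine transporter Slc7a11 at 262 and 188 (-0.48), while the water channel Aqp4 was higher (369 and 466, 0.34, 0.16 to 0.52). By the naming rule Snhg9, Myoc (52.5 and 118, 1.17) and Plec (31.5 and 67.9, 1.11) were higher. Lower were Lgr4, a receptor of R-spondins (179 and 83.9, -1.09, -1.40 to -0.78), Cox6b1 of cytochrome oxidase (162 and 83.9, -0.95) and the adhesion gene Igsf11 (101 and 49.9, -1.01). At 1 to 3% mitochondrial UMIs Lgr4 kept its ratio (-1.12), Cox6b1 had -0.33, and Myoc had 3.07.

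Microglia had more of their own transcripts and less neuronal RNA in FE4. The 475 genes at least 4 times as abundant in microglia as in the other nuclei took 4.80% of microglial UMIs in FE3 and 9.06% in FE4, with a median log2 ratio of 0.93. They were picked from these same data, in which microglia had 321799 UMIs in FE3 and 507080 in FE4. Their median is therefore no independent yardstick. The summed level of 11 microglial markers was 5503 CPM and 10476 CPM. Transcripts of 20 neuronal genes summed to 28990 and 14284 CPM, and none of the 19 measured was higher in FE4 (median -1.04, 16 lower past 1.5-fold, when 20.1% of all genes were). Meg3, an abundant neuronal non-coding RNA, had 21976 and 10695 CPM (-1.04), and Camk2a, a kinase of excitatory synapses, 945 and 339 (-1.48). The part of this neuronal RNA in the microglial ratios was not tested, and each microglial gene below is to be read beside it.

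Of 28 homeostatic microglial genes 26 were higher in FE4, 20 past 1.5-fold (18.2% of all genes were), with a median of 0.86. Tmem119 had 127 CPM in FE3 and 331 in FE4 (1.38, 0.88 to 1.91), the purine receptor P2ry12 146 and 343 (1.23), the fractalkine receptor Cx3cr1 541 and 899 (0.73) and the growth factor receptor Csf1r 590 and 1043 (0.82). Mertk, a receptor for engulfing dead cells, had 137 and 389 (1.51). Genes of disease-associated microglia, which rise around plaques, had a median of 0.53, with 19 of 23 higher and 9 past 1.5-fold. Trem2, the lipid receptor needed for that state, had 423 and 749 (0.83, 0.54 to 1.12) and the lysosomal protease Ctsd 1131 and 1842 (0.70). Both medians were below the 0.93 of genes abundant in microglia, but that set came from these same data, so the comparison does not set the lists apart. The list medians were not computed under other doublet rules or with at least 1000 UMIs. Complement C1qa had 1321 and 2542 (0.94), C1qb 721 and 1426 (0.98) and C1qc 833 and 1791 (1.10). The MHC class I list had 7 of 8 higher by any amount, with B2m at 52.8 and 128 (1.28). Past 1.5-fold, 18.2% of all genes were higher, and most genes abundant in microglia were higher too (median 0.93). The count therefore does not set this list apart.

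By the naming rule Hk2, a hexokinase that feeds glycolysis, and Laptm5, a lysosomal membrane protein, were the highest in microglia beside Snhg9. Hk2, at chr6:82725025-82774454 on the minus strand (mm10), had 345 CPM in FE3 and 1128 in FE4, a log2 ratio of 1.71 (1.41 to 2.02). The tau pairs had -0.36 with oil and 0.11 with tamoxifen. Without tau the ratio of Hk2 was 0.98 with at least 1000 UMIs and 0.70 with the doublet caller's own threshold. Laptm5 had 205 and 576 (1.49, 1.10 to 1.90). Lower were the deubiquitinase Usp34 (305 and 176, -0.80), the kinase inhibitor Camk2n1 of neurons (227 and 128, -0.82) and Fth1 (1234 and 927, -0.41). Homeostatic microglial genes had medians of -0.14 (oil) and 0.20 (tamoxifen) in the tau pairs.

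In oligodendrocytes the myelin genes differed little between libraries. Mbp, myelin basic protein, had 4226 CPM in FE3 and 3778 in FE4 (-0.16, -0.23 to -0.09), and Mobp, another myelin protein, 949 and 1115 (0.23, 0.10 to 0.37). Of 28 myelin genes 12 were higher and 16 lower, with a median of -0.03, which was 0.09 with TMM factors. Of measured genes that respond to glucocorticoids, most lay higher. Sgk1, a kinase induced by steroid hormones, had 204 and 362 CPM (0.83, 0.55 to 1.12), Fkbp5, which binds the receptor complex, 19.6 and 39.9 (1.03, 0.13 to 2.05), and Plin4, a lipid droplet protein, 8.15 and 24.5 (1.59, 0.25 to 3.29). Fkbp5 and Plin4 rest on few UMIs, hence their wide intervals. Of 15 measured genes of that list 11 were higher, 5 past 1.5-fold (9.14% of all genes were), with a median of 0.29. Over the 9 members with at least 100 UMIs the median was 0.14. Mt1 was lower (355 and 243, -0.55). Arrdc2, an arrestin relative, had 32.6 and 82.8 (1.34, 0.66 to 2.10). At 1 to 3% mitochondrial UMIs Arrdc2 had 0.615 and Sgk1 0.71. In the tau pair with oil Sgk1 had 0.09 and in the pair with tamoxifen -0.02.

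The genes named as lower in oligodendrocytes included transcripts known from astrocytes. Ndrg2, of astrocytes, had 243 CPM in FE3 and 87.1 in FE4 (-1.48), Aldoc 264 and 103 (-1.36) and the mitochondrial Chchd10 156 and 61.3 (-1.35). Complement C4b was higher in oligodendrocytes (66.8 and 103, 0.62, 0.12 to 1.15), in contrast to its -0.11 in astrocytes, a difference that was not tested. In oligodendrocyte precursors Snrnp70 of the U1 splicing particle (816 and 1281, 0.65) and the adhesion gene Ntm (1098 and 1610, 0.55) were higher beside Snhg9. Aldoc (333 and 110, -1.60), Fth1 (1516 and 680, -1.16) and Chchd2 (215 and 86.6, -1.31) were lower.

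Choroid plexus epithelial cells, with 154 and 106 nuclei, were higher in FE4 for Ppap2b, a lipid phosphate phosphatase (344 and 631 CPM, 0.88, 0.55 to 1.21), and for Tef, a clock output factor (133 and 266, 1.00, 0.47 to 1.54). Tef was joined by Dbp, of the same family (72.9 and 145, 0.99, 0.27 to 1.73), and Rorb (180 and 390, 1.12). Of 14 circadian genes measured 6 were higher past 1.5-fold (8.83% of all genes were), with a median of 0.18. The core repressor Per2 had 57.3 and 44.8 (-0.35, -1.47 to 0.70) and Per3 341 and 328 (-0.06). The hour at which tissue was taken is not stated. Lower were the adaptor Efs (276 and 107, -1.37), Tpt1 (302 and 135, -1.17) and the RNA-binding Rbm47 (393 and 186, -1.08).

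Matching the nuclei by mitochondrial content changed the size of some named genes and little of others. Over the 48 pairs of a gene and the class whose naming rule chose it, 47 had the same sign in nuclei of 1 to 3% mitochondrial UMIs as in all used nuclei, the exception being Fth1 in microglia. These genes were picked for extreme ratios in all used nuclei, of which the window is a part. The shared sign was thus largely set in advance and is no support for the ratios. Over all 128 pairs of a named gene and any class that could be compared, 4 changed sign: Fth1 and Cox5b (0.54) in microglia, and Apoe in astrocytes (0.27) and in oligodendrocyte precursors (0.055). Hivep2 and Kpna4 in CA1 neurons, Lgr4 in astrocytes, Snhg9 in oligodendrocytes (1.61 and 1.67) and Pcsk2 in subicular or cortical neurons (0.63 and 0.63) moved by little. Cox6a1 in granule neurons (-1.36 and -0.64), Cox6b1 in astrocytes (-0.95 and -0.33) and Aldoc in oligodendrocyte precursors (-1.60 and -0.85) became smaller. Genes of mitochondrial proteins did not all do so: Ndufa1 in subicular or cortical neurons had -1.16 and -1.07, Chchd2 in oligodendrocyte precursors -1.31 and -1.21, and Chchd10 in oligodendrocytes -1.35 and -1.85. The ribosomal protein relative Rpl22l1 in inhibitory neurons had -0.87 and -1.02. The window held 752 FE3 and 254 FE4 nuclei of CA1 neurons and 79 and 218 of microglia, so that matched values rest on fewer UMIs.

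**Figure D5:**
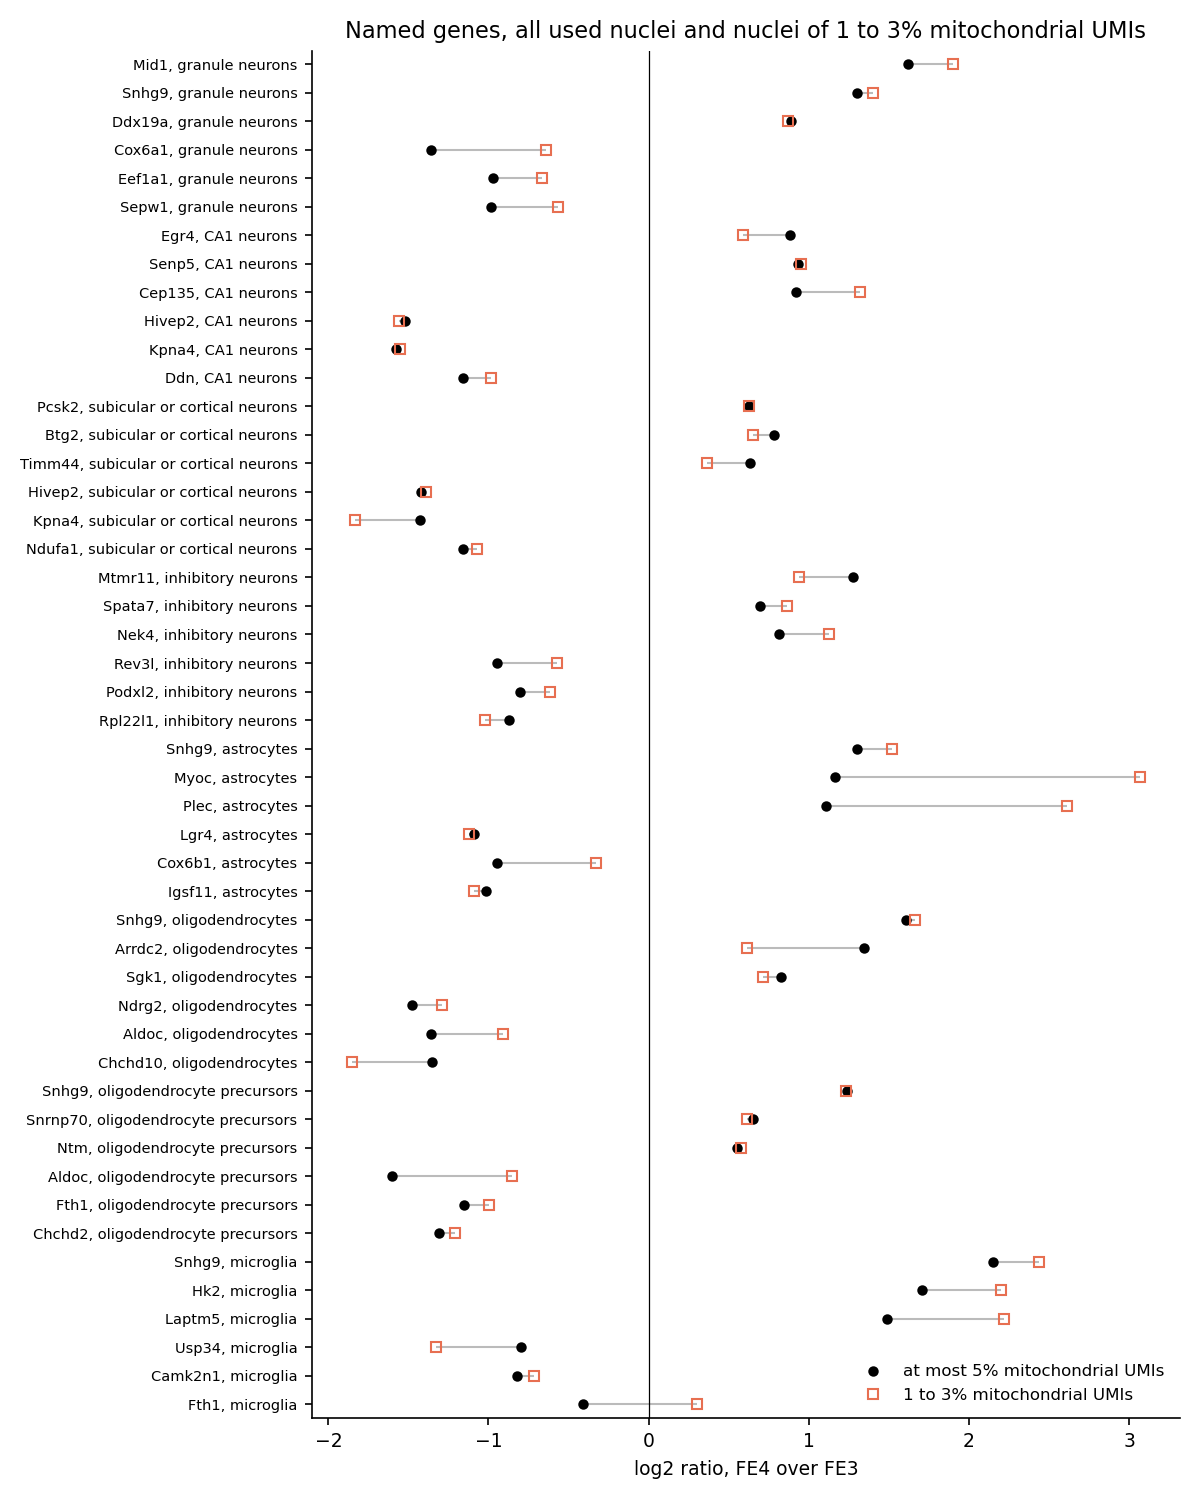
Log2 ratios, FE4 over FE3, of the named genes in 8 classes, in all used nuclei (filled circles) and in nuclei of 1 to 3% mitochondrial UMIs (open squares), joined by a line. Hivep2 in CA1 neurons lay at -1.52 and -1.56, Cox6a1 in granule neurons at -1.36 and -0.64, and Fth1 in microglia crossed 0 (-0.41 and 0.30).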

How the data were processed

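Single nuclei were sequenced with a droplet method, and the deposited matrices hold raw UMI counts, whole numbers for each gene in each barcode. Per the file headers, they were written by Cell Ranger 3.1.0. The submitters' processing notes name mm10 and Seurat, with no role. FE3 held 15677 barcodes and 39863569 UMIs, and FE4 18171 and 49083723. Genes were 33457 features, 32655 of which matched GENCODE vM21.

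Nuclei were filtered as stated in the report, and doublets were scored per library with Scrublet (scanpy 1.11.5). The highest scores were left out at 0.8% per 1000 nuclei, because the caller's own thresholds were unequal between libraries. The shares left out were unequal too, at 8.76% of FE3 and 13.2% of FE4 nuclei. The caller's own thresholds marked 14.4% of FE3 and 3.74% of FE4. Clusters came from 2000 variable genes, 30 components, 15 neighbours and Leiden resolution 1 (leidenalg 0.10.2), and were named by markers. UMIs were summed per class and library, and ratios have exact 95% intervals conditional on the sum, for counting error only. PCR duplicates were removed by UMI. Lists used genes of at least 20 UMIs and 3 CPM. For a ratio, counts under 3 UMIs were set to 3.

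With 1 library per group no test was made. In each of the 10 classes named as a cell type with at least 100 nuclei in both libraries (clusters with no such name were left out, among them those marked by Etv1, Cpne7 and Dlk1 and by fibroblast and smooth muscle genes), the named genes were the 3 highest and 3 lowest by the interval bound nearest 0, of at least 100 UMIs, 20 CPM in the higher library and a level no lower than in other nuclei. Left out were Xist, Tsix, markers of other classes, and mitochondrial, ribosomal protein, Y-linked and unnamed genes. Up to 5 higher and 5 lower genes found in most classes were added, and APOE. Other genes come from the lists. The members and lists were chosen with earlier results of these data known. Alternatives were another mitochondrial limit, UMI minimum, fold, UMI floor, clustering, doublet rule and TMM. The window of 1 to 3%, the caller's own doublet threshold and totals without Malat1 and mitochondrial genes were chosen after seeing the data. Tested on simulated data for 9702 genes of granule neurons, 95.3% of intervals held the true ratio. The simulated counts carried counting error alone, which the intervals assume. This checks the calculation and not variation between nuclei or libraries.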

Additional observations from a re-analysis of the deposited data

Results flagged for a closer look

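In 20 of 70 pairs of a named gene and a class that were measured in both, the log2 ratio of APOE4 over APOE3 had opposite signs without tau and in the tau pair with oil, with both counting intervals clear of 0. Each group is 1 library, and the difference between the pairs was not tested. Most named genes were picked for ratios clear of 0 without tau, and APOE was added in every class. The same share over all genes was not computed, so whether the count is unusual cannot be said. Human APOE made up 6 of these. Its ratio was -0.82 without tau and 0.56 with tau and oil in CA1 neurons, -1.02 and 0.64 in CA2 or CA3 neurons, and -0.76 and 0.51 in granule neurons. It was -0.72 and 0.65 in inhibitory neurons, -0.82 and 0.57 in subicular or cortical neurons, and -0.29 and 0.55 in oligodendrocytes.

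Other genes were also lower without tau and higher in the oil pair. Cox6a1 in granule neurons had -1.36 and 0.44, Cox6b1 in astrocytes -0.95 and 0.47, Ndufa1 in subicular or cortical neurons -1.16 and 0.30, and Chchd2 in oligodendrocyte precursors -1.31 and 0.45. Eef1a1 in granule neurons had -0.97 and 0.24, Rpl22l1 in inhibitory neurons -0.87 and 0.21, and Sepw1 in granule neurons -0.99 and 0.62.

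Ddn in CA1 neurons had -1.16 without tau and 0.44 in the oil pair, and Camk2n1 in microglia -0.82 and 0.49. Higher with APOE4 without tau and lower in the oil pair were Hk2 in microglia (1.71 and -0.36), Lnx1 in CA2 or CA3 neurons (0.62 and -0.45) and Nek4 in inhibitory neurons (0.81 and -0.33). Ntm in oligodendrocyte precursors (0.55 and -0.20) and Pcsk2 in subicular or cortical neurons (0.63 and -0.13) went the same way.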

How the results depend on the processing

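No paired analysis was possible because each group is 1 library. Of 161 named gene ratios, TMM factors left 130 within their counting interval and reversed 0, and at 1 to 3% mitochondrial UMIs 57 of 128 stayed, 67 moved and 4 reversed. The causes were not tested. Gene values at most at 1% could not be computed for glia and choroid plexus, nor at 1 to 3% for CA2 or CA3 neurons and choroid plexus, for want of nuclei.

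Reversed log2 ratios of shares were -0.19 (astrocytes), 0.020 (inhibitory neurons) and -0.25 (precursors) without the mitochondrial filter, and -0.76 (microglia) with at least 1000 UMIs. APOE reversed to -0.32 in astrocytes with the doublet caller's own threshold, and in microglia to -0.38 with at least 1000 UMIs, -0.23 with doublets kept and -0.60 with the own threshold. At 1 to 3% Apoe was 0.27 in astrocytes and 0.055 in precursors. In microglia Cox5b was 0.54, Fth1 0.30, oxidative phosphorylation 0.12 and ribosomal genes 0.36.

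Other shares moved without the mitochondrial filter to -0.059 (CA1), -0.13 (CA2 or CA3), -0.64 (choroid), 0.24 (microglia), 0.29 (oligodendrocytes) and -0.14 (subicular or cortical). At most 1% gave -0.013 (CA1), -1.64 (CA2 or CA3), 1.88 (astrocytes), 0.57 (granule) and -0.47 (inhibitory). At least 1000 UMIs gave -0.15 (CA1), -0.31 (CA2 or CA3), 0.47 (astrocytes), 0.16 (granule), -0.043 (inhibitory), 0.77 (oligodendrocytes) and -0.11 (subicular or cortical). The own doublet threshold gave -0.44 (CA1), 0.47 (astrocytes), -0.11 (granule) and 1.39 (microglia). At 1 to 3% they were -0.87 (CA1), -2.65 (CA2 or CA3), 1.54 (astrocytes), -0.13 (choroid), -0.28 (granule), -0.49 (inhibitory), 2.16 (microglia), 1.27 (precursors), 1.63 (oligodendrocytes) and -0.46 (subicular or cortical).

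List medians moved at 1 to 3% to 1.04 (disease-associated) and 1.37 (homeostatic) in microglia, -0.038 for homeostatic astrocyte genes in astrocytes and -0.19 in granule neurons, where at most 1% gave -0.29. Myelin was 0.092 with TMM. In granule neurons oxidative phosphorylation was -0.52 with TMM, -0.44 at most at 1%, -0.40 at 1 to 3% and -0.56 without Malat1 and mitochondrial genes, and ribosomal genes -0.65, -0.47, -0.41 and -0.68. Over 10 classes 833 higher and 3801 lower genes became 6334 and 12637 with at least 20 UMIs, 129 and 598 at 2-fold, 1712 and 2022 with TMM and 1408 and 2332 without Malat1 and mitochondrial genes. In neurons 331 and 2758 became 2059 and 6439, 31 and 397, 935 and 1282, and 716 and 1545. At most 1% gave 1330 higher.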
